A study of Gallus gallus with 32 samples.

Results

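Blood leukocytes and thrombocytes are told apart by the antigens on their surface, many of which carry a CD (cluster of differentiation) number, and they attach to vessel walls and matrix through integrins. The genes described here carry a gene symbol of the CD form or of the integrin alpha and beta form. Genes on chromosome Z were left out, because males have more copies of them than females, and so were CD9, CD274 and ITGB3. The pattern matched 53 symbols on 61 probe sets, of which CD180 and CD72 lie on chromosome Z. Of the 48 genes kept, 7 (CD47, CD59, CD8A, ITGA11, ITGA6, ITGB1BP1 and ITGB2) had a blank row in every array and have no value here. The remaining 41 members, 29 named CD and 12 named as integrins or integrin partners, are part of 9683 named genes with values. Shares for comparison were taken over all 17894 tested probe sets, named or not. No filter on low signals was applied to the members. For the 5 members with several probe sets, the probe set with the highest mean over all arrays was used.

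A CD number marks a protein that a group of antibodies recognizes, so the series joins unrelated proteins: receptor chains, ligands, scavenger receptors, tetraspanins and shields against complement. An integrin is a pair of an alpha and a beta chain, and only the pair reaches the cell surface. ITGA4 with ITGB1 holds lymphocytes and monocytes to endothelium, and ITGAV, which pairs with several beta chains, binds vitronectin and fibronectin. Bird red cells and thrombocytes keep their nuclei, so whole blood RNA is a mixture of all these cells. Fewer cells of a type and less RNA per cell cannot be told apart in such a mixture.

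The study compared broiler chickens on a standard control diet with broilers whose standard diet held a comfrey supplement. Each of 32 birds gave 1 array of RNA from whole blood cells, extracted from ground clots. There were 8 control females, 8 comfrey-fed females, 8 control males and 8 comfrey-fed males, and the labels name no treatment or allele beyond diet and sex. The labels give every bird an age of 32 months, which no comparison used, and no dose or length of feeding is given there. Values are log2 signals, and a difference of 1 is a 2-fold change.

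Array medians lay between 6.51 and 6.60, but the processing equalizes the arrays' distributions, so they do not measure array quality. Arrays give no read depth, and the number of birds limits the precision. Array weights from limma, lower for arrays farther from their group means, ran from 0.58 in bird 31 to 1.42 in bird 15. The sample titles number the birds from 1 to 32, and the labels do not say what the number stands for. Birds 1 to 16 held 6 control females, 2 control males and 4 birds of either comfrey group, while birds 17 to 32 held 2 control females, 6 control males and again 4 and 4. Sex and bird number were therefore unbalanced among control birds, which also touches diet within either sex and the interaction. Sex differences within birds 1 to 16 and 17 to 32 are given for 7 members, those of CD69L and ITGAV in control birds. Bird 24, a comfrey-fed male, had the highest value of all birds in 8 of the 41 members, and bird 31, a control male, had the lowest in 7 and the highest in 4. The calls for sex and bird number and some correlations are also given without these 2 birds. The correlations among all pairs of members are given only with them. Of the markers that define blood cells, those of red cells averaged 11.24 ± 0.20 (SD, n = 32) over 6 measured genes. Of the T cell markers 9 of 16 were measured, of the B cell markers 7 of 11, of the cytotoxic cell markers 4 of 6 and of the thrombocyte markers 4 of 10. Of these, 5 T cell markers and 1 B cell marker are themselves members. The values hold no detection call, so no gene is called absent.

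The T and natural killer cell receptors made up the largest class, with 9 members. CD3E, a signalling chain of the T cell receptor complex, averaged 9.28 ± 0.25 (SD, n = 32) and ran from 8.82 in bird 31 to 10.01 in bird 24. CD3D, its partner chain, averaged 6.93 ± 0.29, and CD247, the zeta chain of the same complex, averaged 9.29 ± 0.25. CD4, the coreceptor of helper T cells, averaged 8.02 ± 0.29. CD7, an early T and natural killer cell glycoprotein, ranged far more widely, from 6.06 in bird 4 to 9.21 in bird 24, with a mean of 7.55 ± 0.78. CD2, an adhesion receptor of T cells, CD5, a brake on T cell receptor signals, and CD226, an activating receptor, had SDs of 0.32, 0.13 and 0.29. CD69L, placed in this class by its name and given no role here, averaged 10.36 ± 0.33. CD79B, the signalling chain of the B cell receptor, was the one B cell member and averaged 7.58 ± 0.28.

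Antigen presentation and costimulation were covered by CD74, CD40, CD86, CD276, CD1B, CD200 and CD200L. CD74, the invariant chain that guides class II molecules, averaged 10.69 ± 0.32. CD86, a ligand of CD28, averaged 4.09 ± 0.15, with a mean signal at percentile 9.19 of all probe sets. CD276 averaged 6.24 ± 0.22 and CD1B, which presents lipids, 6.61 ± 0.17. The mixed class of myeloid, endothelial and scavenger receptors held CD36, CD109, CD101, CD248 and CD88. RefSeq lists CD248 also as CD93 and CD88 also as CD80, so no role is given to either here. Both were placed in this class by name only, and the class counts include them. The tetraspanins, which organize other membrane proteins into clusters, were CD81, CD82 and CD151. CD55, a shield against complement, averaged 11.52 ± 0.22, CD164, a sialomucin, 11.21 ± 0.29, CD99, an adhesion protein, 11.99 ± 0.41, and CD44, the hyaluronan receptor, 9.73 ± 0.27.

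The integrin subunits with values were ITGA4, ITGA8, ITGA9 and ITGAV and the beta chains ITGB1, ITGB4, ITGB5, ITGB6 and ITGB8. ITGB2, the beta chain shared by the leukocyte integrins, had a blank row, so that family could not be described. ITGA4 averaged 9.78 ± 0.29 and ITGB1 9.52 ± 0.38. ITGAV ran from 6.73 in bird 5 to 9.47 in bird 29. Of the genes with an integrin name but no integrin chain, ITGB3BP encodes a centromere protein that, in mammals, also binds the tail of integrin beta 3. ITGB1BP3 encodes a nicotinamide riboside kinase in mammals, and ITGBL1 a secreted protein with repeats like those of beta chains.

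Birds of a group differed more in some members than in others. About the 4 group means, the SD between birds was 1.06 for CD36, a scavenger receptor for fatty acids and oxidized lipoproteins, higher than in 99.2% of all probe sets. CD7 followed with 0.80, ITGB4 with 0.63 and ITGAV with 0.58. The member median was 0.26 against 0.23 over all probe sets, and 25 of the 41 members lay above that second value. CD36 ran from 2.42 to 6.06 over the birds, at the low end of the signal range, and its 4 group means lay between 4.08 ± 1.11 in control females and 4.51 ± 0.93 in control males (SD, n = 8). The smallest SDs belonged to CD5, at 0.13, and CD40, at 0.14.

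**Figure D1:**
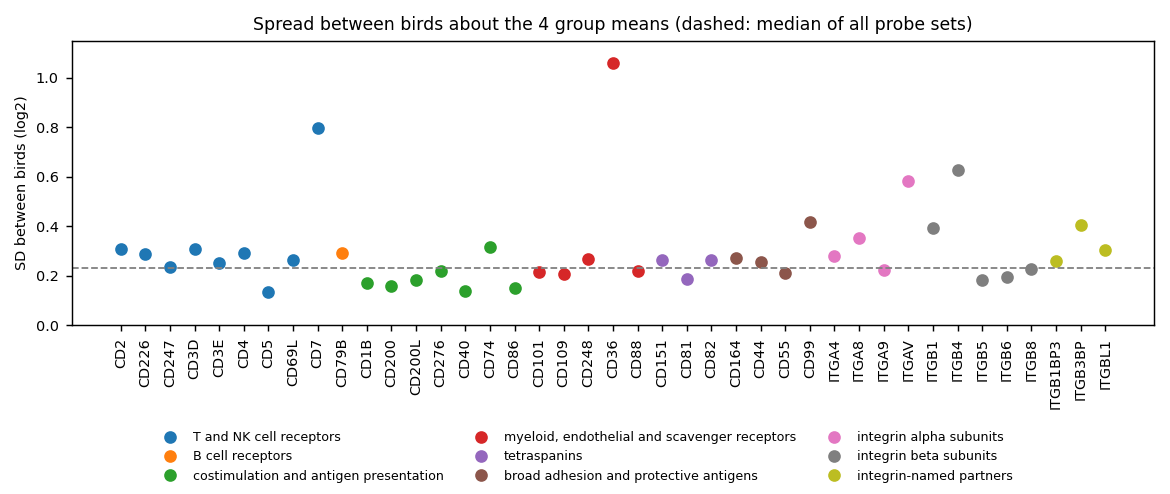
SD of the log2 signal between birds about the 4 group means, on the vertical axis, for each of the 41 members, coloured by class. CD36 (1.06), CD7 (0.80), ITGB4 (0.63) and ITGAV (0.58) stand above the other members, and the dashed line is the median of all probe sets (0.23).

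The first comparison asked which members differed between males and females. Across all birds with diet held, ITGB3BP was higher in males and was the one member past the threshold. It ran from 6.21 to 7.92 in males with a median of 6.59, and from 5.53 to 6.85 in females with a median of 6.30. The sexes overlapped: 3 of 16 males lay above all females, and 14 of 16 above the female median. The difference was 0.47 ± 0.136 (SE), a 1.38-fold higher signal, with an adjusted p of 0.037 (limma). Over both diets its sign was the same within birds 1 to 16, at 0.35, and within birds 17 to 32, at 0.48. With these 2 sets of birds as a block the difference was 0.42 and the adjusted p 0.0843. Without birds 24 and 31 it was 0.45 with 0.0598, and the call was also lost without any 1 of birds 5, 6, 7, 9, 12, 18, 21, 24, 28 and 32 (adjusted p 0.051 to 0.0663, limma). It was 0.49 ± 0.196 under the control diet and 0.45 ± 0.196 under comfrey.

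The share of members past the threshold was 2.44%, against 5.35 percent of all probe sets, 3.53 percent being higher and 1.83 percent lower in males. At an unadjusted p under 0.05 there were 7 members, 17.1%, against 16.5 percent of all probe sets. The member counts were thus near or under the background. The 7 were ITGB3BP, CD69L, ITGAV, CD88, CD247, CD55 and CD164. CD69L differed by 0.32 ± 0.0992 with an adjusted p of 0.0508, and ITGAV by 0.63 ± 0.206 with 0.0724 (limma). CD88 was at 0.21 ± 0.0758, CD247 at 0.21 ± 0.0827, CD164 at 0.23 ± 0.0935 and CD55 at -0.18 ± 0.0735, with adjusted p between 0.122 and 0.189 (limma). CD88 differed by 0.36 within birds 1 to 16 but by -0.012 within birds 17 to 32. In the same order, CD247 differed by 0.22 and 0.26, CD164 by 0.17 and 0.24 and CD55 by -0.11 and -0.19. For 35 of the 41 members, 85.4%, the 95% interval of the sex difference lay within log2 0.5 in either direction, against 85.6% of all probe sets. Positive differences were found in 20 of 41 members, with a median of -0.0075, against a median of -0.025 over all probe sets.

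**Figure D2:**
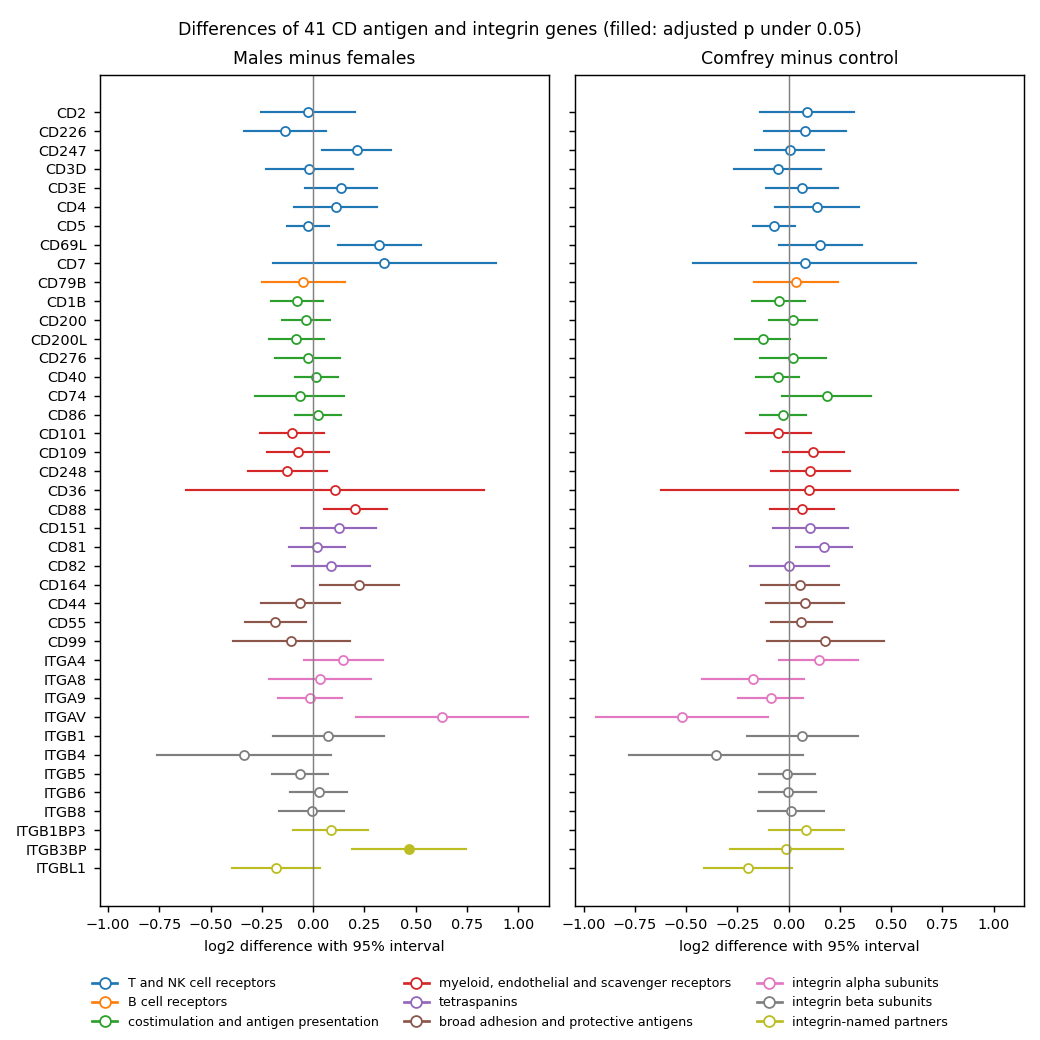
Log2 difference of males minus females (left) and of comfrey minus control (right) for the 41 members, with 95% intervals, coloured by class. Only ITGB3BP, at 0.47 in the left panel, is filled as past the threshold, and ITGAV has the largest differences, at 0.63 for sex and -0.52 for diet.

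Among control birds alone, CD69L and ITGAV rose past the threshold in males, a share of 4.88% against 2.75 percent of all probe sets, or 1.86 percent in the higher direction alone. At an unadjusted p under 0.05 there were 6 members, 14.6%, against 13.4 percent. CD69L ran from 10.15 to 11.06 in control males with a median of 10.52, and from 9.47 to 10.38 in control females with a median of 10.00. Of the 8 control males, 7 lay above every control female. The difference was 0.56 ± 0.129, 1.48-fold, with an adjusted p of 0.00814 (limma). A second probe set of CD69L differed by 0.42 ± 0.145 between the sexes over all birds, against 0.32 for the one used. Neither passed there, with adjusted p of 0.0982 and 0.0508 (limma), and the second probe set is not given for control birds alone. Within birds 1 to 16 the 2 control males were 0.21 above the 6 control females in CD69L, and within birds 17 to 32 the 6 control males were 0.98 above the 2 control females. The sign was the same but the sizes were far apart, and the larger value rests on 2 females. In control birds the difference stayed past the threshold with these sets as a block (0.61, adjusted p 0.00786), without birds 24 and 31 (0.57, adjusted p 0.0164) and without any single bird (limma).

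ITGAV ran from 8.29 to 9.47 in control males with a median of 8.96, and from 6.73 to 8.52 in control females with a median of 8.14. Of the control males, 6 of 8 lay above every control female. The difference was 1.03 ± 0.279, 2.04-fold, with an adjusted p of 0.0356 (limma). With the 2 sets of birds as a block it was 0.73 and the adjusted p 0.198. Without birds 24 and 31 it was 0.97 with 0.0553, and the call was also lost without any 1 of birds 5, 7, 11, 20, 27, 29 and 31 (adjusted p 0.0708 to 0.0965, limma). Within birds 1 to 16 the 2 control males were 0.61 above the 6 control females, and within birds 17 to 32 the 6 control males were 0.63 above the 2 control females. The 4 thrombocyte markers with values, GP1BB, GP9, F13A1 and THBS1, averaged between 6.38 and 8.58 in control males and between 6.43 and 7.68 in control females, and their sex differences there ran from 0.0012 for THBS1 to 1.28 for GP9. None of the 4 passed the threshold in control birds, while GP1BB did over all birds (0.49 ± 0.145, adjusted p 0.0385, limma). Their part in the ITGAV difference was not tested. In the other lists, 1 of 9 T cell markers (IL7R, on chromosome Z) and 1 of 4 cytotoxic markers (XCL1) were higher in males over all birds. So was 1 of 4 heterophil markers (AVD, on chromosome Z), while 1 of 6 red cell markers (TAL1) was lower. No B cell, monocyte or endothelial marker passed. Of all probe sets, 3.53 percent were higher and 1.83 percent lower in males past the threshold.

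In comfrey-fed birds no member passed the threshold for sex, against 3.13 percent of all probe sets (2.49 percent higher). With limma, 3 members had an unadjusted p under 0.05, or 7.32% against 12.2 percent, namely CD247 at 0.29 ± 0.117, ITGB3BP at 0.45 ± 0.196 and CD1B at -0.18 ± 0.087. CD69L differed by 0.082 and ITGAV by 0.23 there. The sex difference of neither gene was shown to depend on diet, since the interaction given further on did not pass.

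**Figure D3:**
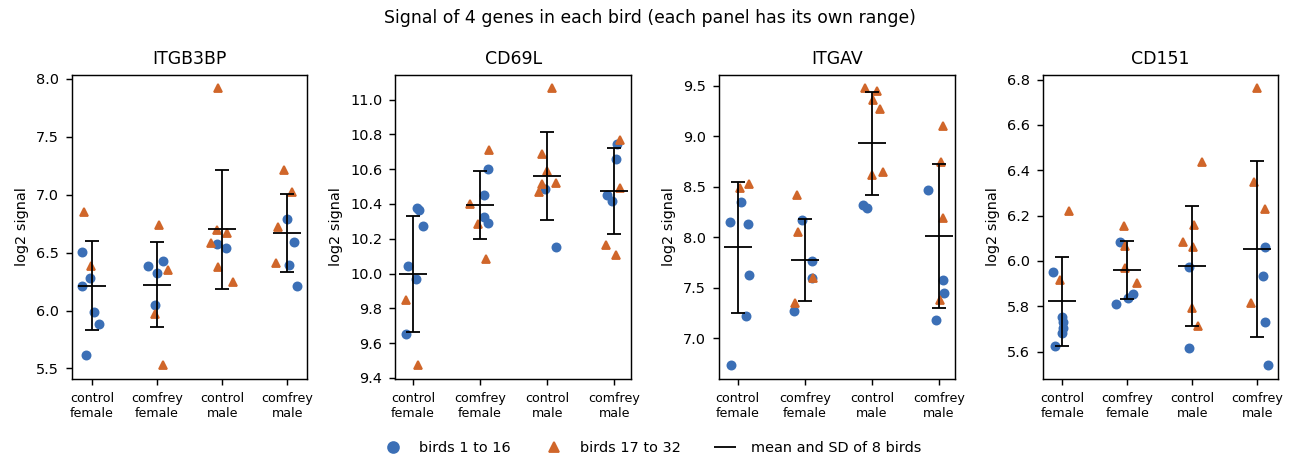
Log2 signal of ITGB3BP, CD69L, ITGAV and CD151 in each bird, by group, with the mean and SD of 8 birds; blue circles are birds 1 to 16 and orange triangles birds 17 to 32, and each panel has its own vertical range. Control males lie above control females in CD69L for 7 of 8 birds and in ITGAV for 6 of 8, and the triangles lie high in ITGAV and CD151.

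Comfrey against control, with sex held, moved no member past the threshold. No probe set of the array passed either (0.0 percent), and 2 of 41 members had an unadjusted p under 0.05, against 7.99 percent of all probe sets (limma). CD81, which in mammals is a tetraspanin of the B cell coreceptor complex, had the smallest p. It ran from 8.92 to 9.49 in comfrey-fed birds with a median of 9.14, and from 8.57 to 9.31 in control birds with a median of 8.97, with wide overlap. The difference was 0.17 ± 0.067 with a 95% interval from 0.037 to 0.31 and an adjusted p of 0.614 (limma). ITGAV differed by -0.52 ± 0.206, with an interval from -0.94 to -0.10 and the same adjusted p.

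The other members with the smallest p for diet were CD200L, ITGBL1, CD74 and ITGB4. CD200L, named for its likeness to the inhibitory ligand CD200, differed by -0.13 ± 0.066, and ITGBL1 by -0.20 ± 0.105. CD74 differed by 0.19 ± 0.107. ITGB4, which in mammals anchors epithelia through hemidesmosomes, differed by -0.35 ± 0.209. For 37 of 41 members, 90.2%, the 95% interval lay within log2 0.5, against 89.6% of all probe sets. For all 41 it lay within a 2-fold change, against 98.9% of all probe sets. Positive differences were found in 26 of 41 members, with a median of 0.036, against 47.4% and a median of -0.0062 over all probe sets. By class, positive differences were found in 7 of 9 T and natural killer cell receptors, 1 of 1 B cell receptor, 3 of 7 costimulation and antigen presentation genes, and 4 of 5 myeloid, endothelial and scavenger receptors. They were also found in 3 of 3 tetraspanins, 4 of 4 broad adhesion antigens, 1 of 4 integrin alpha chains, 2 of 5 beta chains and 1 of 3 integrin-named partners. None of these passed the threshold.

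Within the sexes, no member passed the threshold for diet either. In females 1 probe set passed of all tested (0.00559 percent), and 3 members, 7.32%, lay under an unadjusted p of 0.05, against 3.93 percent of all probe sets. CD69L averaged 10.39 ± 0.20 in comfrey-fed females and 10.00 ± 0.33 in control females (SD, n = 8), and 4 of 8 comfrey-fed females lay above every control female. That difference was 0.39 ± 0.129 with an adjusted p of 0.998 (limma), and the second probe set gave 0.42. CD81 differed by 0.24 ± 0.094 and CD109, a protein of the alpha-2-macroglobulin family, by 0.21 ± 0.103 in females. CD248 was at 0.24 ± 0.131, CD74 at 0.23 ± 0.153 and ITGB4 at -0.43 ± 0.299. Control females lay mostly in birds 1 to 16, 6 of 8, while comfrey-fed females were split 4 and 4. Over all members, 28 of 41 (68.3%) had a positive difference in females, against 46.8% of all probe sets.

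Among males no probe set passed (0.0 percent), and 5 members, 12.2%, lay under an unadjusted p of 0.05, against 10.3 percent of all probe sets. ITGAV averaged 8.01 ± 0.71 in comfrey-fed males and 8.93 ± 0.51 in control males. Of the comfrey-fed males, 1 of 8 lay above the control male median and none above the highest control male. The difference was -0.92 ± 0.279, with an interval from -1.49 to -0.35, an unadjusted p of 0.0025 and an adjusted p of 0.414 (limma). CD44 differed by 0.28 ± 0.126 and CD2 by 0.32 ± 0.15. CD200L was at -0.19 ± 0.093, ITGBL1 at -0.30 ± 0.149 and ITGA8 at -0.30 ± 0.171. Control males lay mostly in birds 17 to 32, 6 of 8, while comfrey-fed males were split 4 and 4. The 4 thrombocyte markers had differences from -0.65 to -0.0022 in males, with a median of -0.40, and none passed. Their part in the ITGAV value was not tested.

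The interaction, which is the comfrey difference among males less that among females, was past the threshold for no member and no probe set (0.0 percent). With limma, 3 members had an unadjusted p under 0.05, or 7.32%, against 5.7 percent of all probe sets. They were CD69L at -0.48 ± 0.182, CD44 at 0.39 ± 0.178 and CD2 at 0.47 ± 0.212, followed by ITGAV at -0.79 ± 0.394, CD1B at -0.20 ± 0.123 and CD248 at -0.28 ± 0.185. Adjusted p lay between 0.858 and 0.893 (limma). Control females lay mostly in birds 1 to 16 and control males in birds 17 to 32, so bird number is mixed with the interaction. For CD69L the order of the group means was control females at 10.00, comfrey-fed females at 10.39, comfrey-fed males at 10.48 and control males at 10.56. The last 3 differed by less than the SD of a group, which lay between 0.20 and 0.25 there.

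The birds were also compared by the number in the sample title, whose meaning the labels do not give. Between birds 17 to 32 and birds 1 to 16, with the 4 group means held, CD151 rose past the threshold, a share of 2.44% against 3.04 percent of all probe sets, 2.2 percent being higher and 0.844 percent lower. At an unadjusted p under 0.05 there were 11 of 41 members, 26.8%, against 19.2 percent of all probe sets. CD151, a tetraspanin that binds laminin-binding integrins, ran from 5.71 to 6.76 in birds 17 to 32 with a median of 6.07, and from 5.54 to 6.08 in birds 1 to 16 with a median of 5.78. The difference was 0.29 ± 0.083, with an adjusted p of 0.0481 (limma). Its sign was positive in each of the 4 groups, from 0.13 in comfrey-fed females to 0.47 in comfrey-fed males. Without birds 24 and 31 it was 0.26 with an adjusted p of 0.0468. The call held in 9 of 32 omissions of a single bird (birds 3, 9, 12, 14, 17, 21, 28, 30 and 31) and was lost in the other 23, with adjusted p from 0.052 to 0.104 (limma).

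The members next in p did not pass. ITGA4 differed by 0.30 ± 0.089 with an adjusted p of 0.0631, ITGAV by 0.59 ± 0.185 with 0.0775 and CD7 by 0.78 ± 0.256 with 0.0947 (limma). CD4 was at 0.29 ± 0.096 and CD3E at 0.23 ± 0.086. CD7 averaged 7.96 ± 0.69 in birds 17 to 32 and 7.15 ± 0.66 in birds 1 to 16 (SD, n = 16), and these ranges overlapped. For CD7, CD4, CD3E, ITGA4 and ITGAV, birds 17 to 32 had the higher mean in every group, by 0.12 to 1.29. ITGB1, CD226, ITGB1BP3, CD276 and CD200L also had an unadjusted p under 0.05, the last 3 with negative differences between -0.23 and -0.14. Not all T cell members rose: of the 9 T and natural killer cell receptors, 5 had a positive and 4 a negative difference. The CD247 mean of birds 17 to 32 differed from that of birds 1 to 16 by -0.14 in females and -0.11 in males. Over all members 23 of 41 (56.1%) had a positive difference, against 40.5% of all probe sets.

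Some markers of blood cells moved with the bird number, where 2.2 percent of all probe sets rose and 0.844 percent fell past the threshold. Of the 4 thrombocyte markers with values, GP9 (1.62 ± 0.243), F13A1 (1.14 ± 0.231) and GP1BB (0.57 ± 0.118) rose in birds 17 to 32, with adjusted p between 0.000322 and 0.00446 (limma). The mean of the 4 markers lay between 6.31 and 7.34 in birds 1 to 16 and between 6.86 and 8.58 in birds 17 to 32. Of 9 T cell markers 2, CTLA4 and GATA3, rose, and the list mean ran from 7.77 to 8.21 in birds 1 to 16 and from 8.00 to 8.40 in birds 17 to 32. None of the 4 cytotoxic markers passed, with list means between 5.46 and 6.63 and between 5.75 and 7.67. Of 7 B cell markers 1, BTK, rose. None of the 6 red cell, 4 heterophil, 4 monocyte and 5 endothelial and stromal markers passed. The part of these markers in the member differences was not tested.

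Signalling partners of the members were taken from 4 lists. Of all probe sets, 2.2 percent rose and 0.844 percent fell past the threshold in birds 17 to 32. In the list for integrin activation and adhesion, 20 of 34 genes were measured. Of these, 5 rose and 1 fell in birds 17 to 32, with a median difference of 0.046 against -0.032 over all probe sets. PARVB, which ties integrins to actin, was at 0.92 ± 0.156, SYK, a kinase coded on chromosome Z, at 0.55 ± 0.091, RAP1B, a small GTPase that activates integrins, at 0.52 ± 0.098 and LIMS1 at 0.62 ± 0.155. CRKL, an adaptor, rose too, and BCAR1, a scaffold of focal adhesions, fell by 0.31. Of 14 measured genes of T cell receptor signalling, 6 rose and 1 fell, with a median of 0.36. LCP2, the adaptor SLP-76, was at 0.46 ± 0.094 and PTPRC, the phosphatase CD45, at 1.00 ± 0.278, while PDCD1, an inhibitory receptor, fell by 0.27. Of 12 measured genes of B cell receptor signalling, 3 rose, among them PLCG2 at 0.84 ± 0.13. Of 17 measured integrin ligands, 1, the fibrinogen chain FGG, fell by 0.37.

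For sex, 1 of the 20 integrin activation and adhesion genes rose in males, SYK at 0.43 ± 0.124. Of the 14 T cell genes 1 rose, the interleukin receptor chain IL7R at 0.57 ± 0.12. Both are coded on chromosome Z, and 3.53 percent of all probe sets were higher in males past the threshold. No B cell gene or ligand passed for sex. For diet no gene of the 4 lists passed. The medians were -0.037 for integrin activation and adhesion, -0.068 for ligands, 0.15 for T cell receptor signalling and 0.036 for B cell receptor signalling. Positive diet differences were found in 7 of 20 integrin activation and adhesion genes and 3 of 17 ligands. They were also found in 12 of 14 T cell genes and 8 of 12 B cell genes, against 47.4% of all probe sets.

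Pairs of genes whose products form a complex or sit on one cell type were compared over birds after the group means were taken out. Any difference between birds 1 to 16 and 17 to 32 was left in, so r and p over all birds include it. Of 14 pairs listed, 4 had values for both genes. CD3E and CD4 varied together, with r = 0.79 and rho = 0.76 over 32 birds (two-sided permutation p = 1e-05 for either, the smallest that the permutations can give, adjusted 4e-05 over the 4 pairs). The relation held within birds 1 to 16 (r = 0.64) and birds 17 to 32 (r = 0.85), and r was 0.75 without the 2 birds farthest from the median of CD3E, which are birds 24 and 31. ITGA4 and ITGB1, the chains of the integrin VLA-4, gave r = 0.68 and rho = 0.61 (permutation p = 2e-05 and 0.00029, adjusted 4e-05 and 0.00058). Within birds 1 to 16 and 17 to 32 r was 0.42 and 0.75, and it was 0.67 without the 2 farthest birds and 0.59 without birds 24 and 31.

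CD3D and CD3E, which sit in one complex, gave r = 0.21 and rho = 0.24 (permutation p = 0.259 and 0.176, adjusted 0.345 and 0.235), with r = 0.16 without the 2 farthest birds. Their r was -0.18 within birds 1 to 16 and 0.50 within birds 17 to 32. ITGAV and ITGB5, the chains of a vitronectin receptor, gave r = 0.018 and rho = -0.037 (permutation p = 0.924 and 0.84, adjusted to the same values), with r = 0.027 without the 2 farthest birds.

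**Figure D4:**
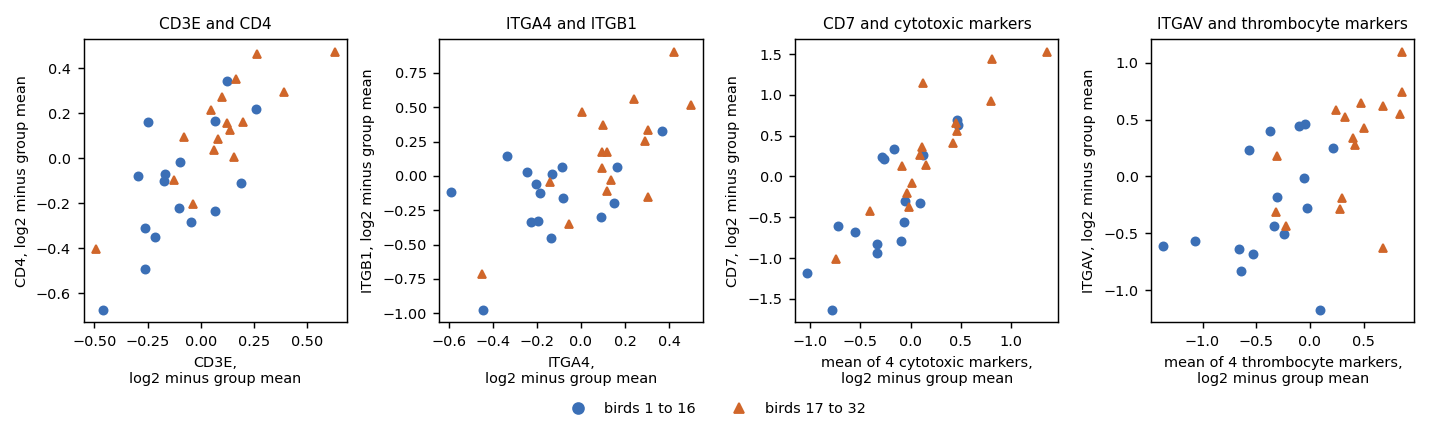
Each point is a bird, with log2 signals minus the group mean on both axes; blue circles are birds 1 to 16 and orange triangles birds 17 to 32. The panels show CD3E against CD4 (r = 0.79), ITGA4 against ITGB1 (r = 0.68), CD7 against the mean of 4 cytotoxic markers (r = 0.87) and ITGAV against the mean of 4 thrombocyte markers (r = 0.61).

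The 4 members with the widest spread were set against the means of 8 marker lists, 32 relations in a family chosen after the values were seen. Here too the difference between birds 1 to 16 and 17 to 32 was left in r and p over all birds. CD7 followed the cytotoxic markers GZMA, PRF1, XCL1 and EOMES with r = 0.87 and rho = 0.88 (permutation p = 1e-05 for either, adjusted 0.00016). Its r was 0.77 within birds 1 to 16 and 0.89 within birds 17 to 32. It was 0.83 without the 2 farthest birds and 0.84 without birds 24 and 31. CD7 also gave r = 0.81 and rho = 0.75 with the mean of the T cell markers (adjusted permutation p 0.00016 for either). There r was 0.815 and 0.69 within birds 1 to 16 and 17 to 32, and 0.74 without the 2 farthest birds. Of the 5 T cell markers that are members, CD3E gave 0.80 with CD7 and CD4 gave 0.66. CD3D gave 0.18, CD247 -0.18 and CD5 -0.47, so not every marker of the list followed CD7. With the B cell markers CD7 gave r = 0.575 and rho = 0.51 (adjusted permutation p 0.00275 and 0.0185), but r was -0.064 within birds 1 to 16 and 0.79 within birds 17 to 32, so that relation did not hold in both sets of birds. CD7 gave r = 0.60 and rho = 0.56 with the thrombocyte markers (adjusted permutation p 0.0024 and 0.00936). Within the 2 sets r was lower, at 0.34 and 0.54.

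ITGAV followed the thrombocyte markers with r = 0.61 and rho = 0.66 (adjusted permutation p 0.00171 and 0.000533). Within the 2 sets of birds its r was 0.35 and 0.55. It was 0.64 without the 2 farthest birds and 0.56 without birds 24 and 31. Both values within the sets were lower than that over all birds. The marker mean was 6.84 in birds 1 to 16 and 7.77 in birds 17 to 32, where ITGAV was also higher, and the pooled r and p include this step. ITGB4 ran against the mean of the T cell markers, with r = -0.51 and rho = -0.51 (adjusted permutation p 0.0142 and 0.0185). Its r was -0.39 and -0.58 within the 2 sets and -0.54 without the 2 farthest birds. With the T cell markers that are members, r was -0.41 for CD4, -0.29 for CD3E and -0.031 for CD3D. It was positive for CD5, at 0.17, and for CD247, at 0.20. CD36 passed with none of the 8 lists, its r lying between -0.26 and 0.080.

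Among all 820 pairs of members, 46 had r over 0.5 and 8 under -0.5, with a median of 0.046, given as a description since the pairs share birds. Pairs of other probe sets were not counted, so these counts cannot be read as a trait of the members. The highest values besides CD3E with CD4 were those of CD3E with CD7 at 0.80, CD3E with CD82 at 0.78, CD3E with ITGA4 at 0.77 and CD7 with ITGA4 at 0.74. CD74 gave 0.71 with CD79B and 0.69 with CD44. CD276, a ligand of the B7 family, ran with ITGA9 at 0.72 and ITGB6 at 0.66. The mean signals of ITGA9 and ITGB6 were low, 4.96 and 4.40, at percentiles 19.5 and 12.2 of all probe sets. CD5 ran against CD151 at -0.63, CD82 at -0.60 and CD3E at -0.54. CD3D, CD36, ITGAV and ITGB4 had r over 0.5 with none of the other members, while ITGA4 had it with 9.

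**Figure D5:**
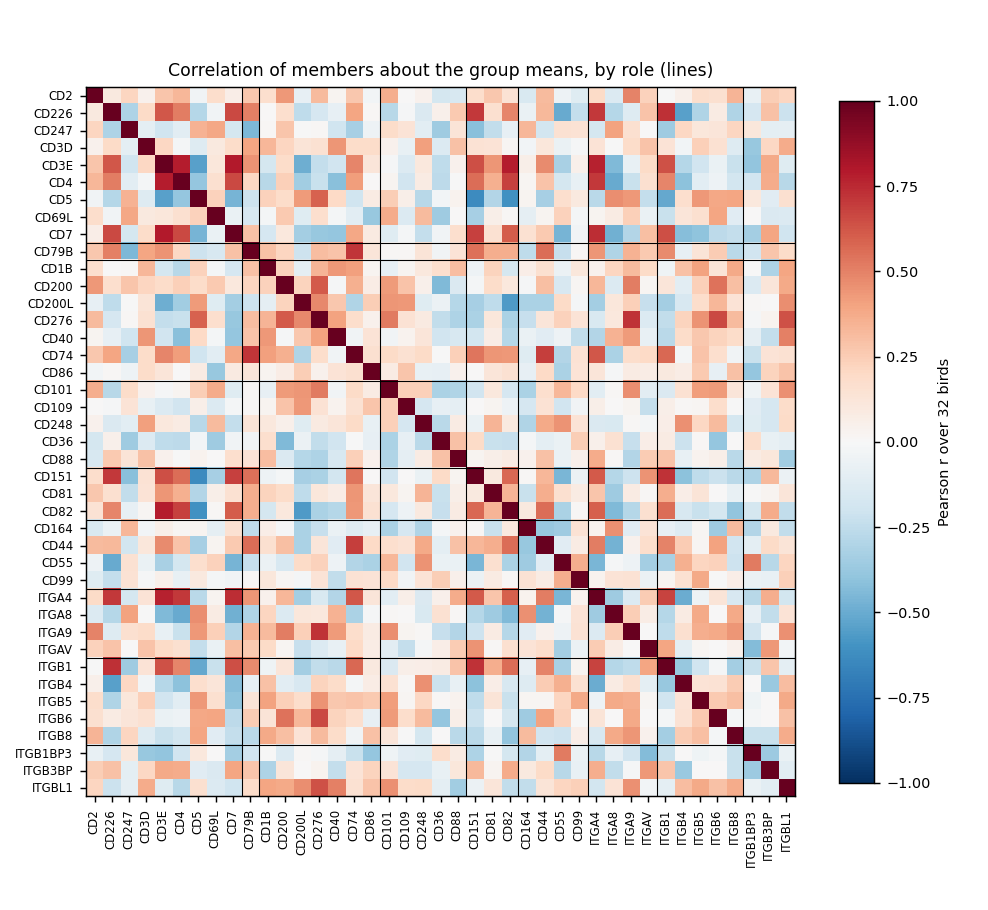
Pearson r between each pair of the 41 members over 32 birds after the group means were taken out, with members ordered by class and classes set apart by lines; red is positive and blue negative. CD3E, CD4, CD7, CD226, CD82, CD151, ITGA4 and ITGB1, which lie in several classes, are red with each other. Their r ran from 0.80 (CD3E with CD7) down to 0.49 (CD4 with ITGB1). CD5 is blue against several of them, to -0.63 (CD151). All of the genes red with each other except CD82 also had a positive bird-number difference with an unadjusted p under 0.05 (limma). That difference was not taken out. In all of these genes bird 24 lay high, 1.87 (CD226) to 3.24 (CD82) SD from the mean. Bird 31 lay low in them, at -2.37 (CD226) to -0.90 (CD151) SD. The part of either in these correlations was not tested.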

How the data were processed

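Blood RNA of 32 chickens was measured, 1 array per bird. The deposited values are log2 signals made by the authors with GCOS 1.1.1 and RMA, per the submitters' processing notes; RMA corrects background, equalizes the arrays' distributions and summarizes probes, so a shift common to most genes is lost. No source used here names the genome build behind the probes. Of 20804 rows, 2910 were blank in every array, and the other 17894 probe sets were all tested, 824 of them repeating another row. Gene names came from the platform annotation, and chromosomes from RefSeq genes of GRCg7b, matched by gene ID for 40 members and by symbol for CD101. No gene, promoter or protein sequence was used here.

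All 32 arrays entered linear models in R 4.3.3 (limma 3.58.1, functions lmFit and eBayes). The two-sided p-values were adjusted by Benjamini and Hochberg over the 17894 probe sets, and a result passed the threshold where this adjusted p was under 0.05. Sex was fitted with diet and diet with sex; other contrasts came from 1 mean per group. The fits were tested on simulated data. Correlations used residuals from the group means and 100000 permutations (numpy 2.4.6). The birds of a group are separate animals, 8 per group. Alternatives changed the moderation, filter, scaling, weights, bird number and probe set rule, and left out each bird.

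Members and gene lists were chosen with earlier results of these data known. Members were named when past the threshold or among the 6 smallest p of a comparison, among the 2 widest in spread of a class, or in a listed pair; partner genes when past the threshold. Partner genes for the bird number, which this rule did not cover, and members named for other reasons were chosen after their values were seen.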

Additional observations from a re-analysis of the deposited data

Results flagged for a closer look

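Single birds stood far from the other 7 of their group in 6 of 128 group and gene combinations (32 named members in 4 groups). By this measure, the gap to the nearest bird over the group's range, chance alone sets a bird apart in about 1 of 20 groups. Bird 31, a control male, had the highest CD164 of its group, at 12.29 with the next control male at 11.39, and the highest ITGA8, at 6.78 with the next at 5.45. Bird 29, also a control male, had an ITGB3BP signal of 7.92, with the next at 6.70. Without this bird the sex difference of ITGB3BP was 0.38 with an adjusted p of 0.0443 (limma). Among comfrey-fed males, bird 24 had a CD79B of 8.42, with the next at 7.59, and bird 6 had the lowest CD3D, at 6.31 with the next at 6.81. Bird 10, a comfrey-fed female, had the lowest CD88, at 8.87 with the next at 9.33.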

How the results depend on the processing

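The number of members called for sex was 1. It was 2 (ITGB3BP and CD69L) with an intensity trend and robust variances and with the mean of all probe sets of a gene, and 2 (CD69L and ITGAV) with dim probe sets left out, where ITGB3BP is not tested, and among control birds. It was 0 with birds 1 to 16 and 17 to 32 as a block, without birds 24 and 31 (an alternative chosen after seeing the data) and among comfrey-fed birds. The number called for the bird number was 1, and it was 0 with dim probe sets left out, where CD151 is no longer tested, and 3 (CD151, ITGA4 and CD7) with array weights. Leaving out single birds gave 0 to 2 for sex and 0 to 2 for the bird number. Apart from control and comfrey-fed birds, whose shares are given above, the share of all probe sets called was not kept for the alternatives. A change in these counts therefore cannot be set against a general change in calls. The counts for diet, for diet within either sex and for the interaction stayed at 0 under every alternative run, single birds left out included.

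Leaving out single birds ended the call of ITGB3BP for sex in 10 of 32 omissions and of CD151 in 23. The call of ITGAV in control birds ended in 7 omissions, all among the 16 control birds. Leaving out a comfrey-fed bird does not change that difference, which stays at 1.03. ITGAV in control birds also lost its call with the bird number as a covariate (0.78, adjusted p 0.154, limma). CD69L in control birds had an adjusted p of at most 0.0256 when single birds were left out. The cause of these changes was not tested. Under the alternatives other than single birds left out, none of 320 values of 38 named differences changed sign, 309 stayed on the same side of the threshold, 6 passed it newly and 5 lost it. Of the 38, only ITGB3BP for sex, CD151 for bird number, and CD69L and ITGAV in control birds had passed in the main fit. The 5 losses fall on these calls. Many of the other differences lay far from the threshold, so the count of 309 says little about how stable these calls are. The correlation of CD3D and CD3E was -0.18 in birds 1 to 16, and that of ITGAV and ITGB5 was -0.11 in birds 17 to 32 and -0.029 without birds 24 and 31. No paired analysis was possible because the labels give the groups no shared replicate numbers.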

Other observations

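The other probe set of ITGB8, a beta chain that pairs with ITGAV, differed by -0.26 ± 0.111 for diet in females, with an unadjusted p of 0.0236 in limma and an adjusted p of 0.998. The probe set used for ITGB8, the brighter by mean signal, differed by 0.041 ± 0.112 in the same birds. The 2 probe sets of ITGB1BP3 gave -0.24 and -0.23 for the bird number, and those of CD248 gave 0.016 and 0.24 for diet in females. These values were looked up after the members' own results were seen.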
